A study of Mus musculus with 9 samples.

Results

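The transcripts described here are 10 genes of white and brown adipocytes (Adipoq, Lep, Retn, Cfd, Plin1, Plin4, Fabp4, Pparg, Ucp1 and Cidea), measured by RNA sequencing of 9 libraries of mouse aorta. They were chosen by gene symbol, and all 10 were found among the 17179 symbols of the deposited tables. All 10 also reached the mean of 1 FPKM (fragments scaled to transcript length and to the library's total) over the 9 libraries that put 12997 genes into the tests. The mice were C57BL/6J and were killed on day 28. Both TPA libraries came from mice given BAPN together with TPA, which activates the transcription factor AP-1 and was injected from day 1 at 50 ng/g/day. Both T-5224 libraries, titled 2 weeks and 3 weeks, came from mice given BAPN together with 5 mg/kg/day of T-5224, which inhibits AP-1. For coQ10 (10 mg/kg/day, with BAPN) there was 1 library. BAPN alone and normal mice, which drank distilled water, had 2 libraries each. BAPN (β-aminopropionitrile, 1 g/kg/day) blocks the enzymes that cross-link collagen and elastin, and was given to all mice but the normal ones to bring on aortic dissection. T-5224 and coQ10 were given by gavage, begun on day 7 or day 14. The titles 2 weeks and 3 weeks match the time from day 14 and from day 7 to day 28, but the sources do not state this link. The T-5224 libraries may therefore differ in length of treatment. They are numbered 1 and 2 as their treatment labels are and were fitted as 1 group. The difference between them thus enters the spread used in all comparisons. The sources used here give neither age nor sex. They speak of 9 aortas without tying each library to an animal. The coQ10 label is written co110, and is read here as coQ10.

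Adipocytes surround the aorta as perivascular fat, which is brown-like along the thoracic aorta and whiter along the abdominal aorta in mice. White adipocytes store triglyceride in a large droplet coated by perilipins and secrete hormones such as adiponectin and leptin, and brown adipocytes burn lipid for heat through the mitochondrial uncoupling protein UCP1. The nuclear receptor PPARγ, together with transcription factors of the C/EBP family, drives the differentiation of both.

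The promoters of 5 of these genes are printed. Lep, Plin1 and Pparg are the searched genes in which the C/EBP motif given below was found. Adipoq and Plin4 lack it, as do Cfd, Retn and Ucp1, whose promoters are not printed. Sequences are from RefSeq on GRCm38.p6, 5′ to 3′ on the strand of the gene, and run from 250 bases before the annotated start to 50 bases after it. Capitals mark the core of the C/EBP motif, TTGCNNAA, on either strand. Promoters of 8 of the genes were searched. The motif occurred in Lep, 55 bases before the start, in Plin1, 187 and 58 bases before it, and in the downstream promoter of Pparg, 215 and 16 bases before it. It occurred in 10.8% of the 32851 mouse promoters of the same length. The windows were chr6:29059971-29060270 (plus strand) for Lep, chr7:79732727-79733026 (minus) for Plin1, chr6:115421816-115422115 (plus) for Pparg, chr16:23146286-23146585 (plus) for Adipoq and chr17:56109733-56110032 (minus) for Plin4.
Lep: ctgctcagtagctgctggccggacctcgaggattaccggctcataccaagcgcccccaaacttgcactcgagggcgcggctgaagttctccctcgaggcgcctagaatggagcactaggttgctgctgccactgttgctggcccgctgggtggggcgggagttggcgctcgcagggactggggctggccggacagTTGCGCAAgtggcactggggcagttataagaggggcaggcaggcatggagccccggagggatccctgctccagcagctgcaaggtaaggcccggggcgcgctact
Plin1: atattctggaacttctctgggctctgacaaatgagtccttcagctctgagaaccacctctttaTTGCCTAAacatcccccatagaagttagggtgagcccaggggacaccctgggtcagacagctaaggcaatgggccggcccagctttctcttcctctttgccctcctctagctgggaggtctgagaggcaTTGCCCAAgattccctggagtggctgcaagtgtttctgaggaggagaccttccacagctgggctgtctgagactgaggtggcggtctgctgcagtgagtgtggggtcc
Pparg: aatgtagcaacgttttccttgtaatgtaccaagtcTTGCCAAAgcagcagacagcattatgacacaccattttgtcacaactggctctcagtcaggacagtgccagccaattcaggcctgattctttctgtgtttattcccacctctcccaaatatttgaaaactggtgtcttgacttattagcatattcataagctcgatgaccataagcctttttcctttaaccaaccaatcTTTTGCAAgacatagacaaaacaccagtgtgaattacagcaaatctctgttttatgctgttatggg
Adipoq: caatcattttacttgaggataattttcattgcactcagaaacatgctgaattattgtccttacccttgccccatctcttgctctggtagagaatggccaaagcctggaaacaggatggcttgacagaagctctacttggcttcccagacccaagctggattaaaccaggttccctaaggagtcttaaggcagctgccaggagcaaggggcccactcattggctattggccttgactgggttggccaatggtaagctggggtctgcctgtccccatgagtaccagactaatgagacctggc
Plin4: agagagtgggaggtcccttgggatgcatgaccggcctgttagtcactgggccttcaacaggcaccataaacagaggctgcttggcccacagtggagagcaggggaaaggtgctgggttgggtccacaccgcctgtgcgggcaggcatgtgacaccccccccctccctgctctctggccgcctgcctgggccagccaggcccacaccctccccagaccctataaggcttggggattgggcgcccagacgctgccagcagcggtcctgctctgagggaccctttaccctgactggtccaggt
The letters of the motif are not in the Adipoq and Plin4 windows. The nuclear receptor half-site AGGTCA, also searched on both strands, was in Ucp1, 14 bases before the start, and in the 2 upstream promoters of Pparg, and in 16.3% of all promoters. No searched window held both this half-site and a C/EBP core. A match is a description of the letters and not a measured site.

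The libraries differed in the markers of other tissues. Of the FPKM sum, haemoglobin genes made up 69.4% and 69.2% with TPA, 40.8% and 11.2% with T-5224, 5.40% in coQ10, 68.9% and 74.1% in BAPN, and 1.25% and 1.03% in normal. The 8 smooth muscle markers, Acta2 and Tagln leading, were listed in every library, which smooth muscle of other organs would show too. They summed to 2626 and 3434 FPKM in TPA, 12976 and 3661 in T-5224, 10473 in coQ10, 2060 and 758 in BAPN, and 6693 and 18689 in normal, and the airway, cardiac or skeletal muscle markers given next exceeded them in several libraries. The 8 airway epithelium markers summed to 15715 and 7155 FPKM in TPA, 5031 in T-5224 replicate 2 and 19638 in normal replicate 1, and to at most 41.4 in the other libraries. The 8 cardiac muscle markers summed to 3557 and 890 FPKM in TPA, 1566 in T-5224 replicate 2 and 11246 in normal replicate 1, and to at most 65.6 in the other libraries. Skeletal muscle markers summed to between 1616 and 14763 FPKM in 6 libraries and to between 18.2 and 51.5 in T-5224 replicate 1, coQ10 and normal replicate 2. Spearman's rho between transcript length and how far genes stood from their 9-library mean, a trend that RNA quality can move, ran from -0.404 in T-5224 replicate 2 to 0.423 in normal replicate 2. The part that these differences have in the results was not tested. Fewer adipocytes in a sample and less of a transcript per adipocyte cannot be told apart in bulk tissue. Since the labels do not state that the 2 libraries of a group came from separate animals, p-values measure the spread between these samples, which may be technical.

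Adipoq encodes adiponectin, the hormone by which adipocytes are most often recognised. It lies on chromosome 16 from 23146536 to 23157968. Adipoq stood at 140 and 129 FPKM in TPA, 18.1 and 179 in T-5224, 210 in coQ10, 5.94 and 13.4 in BAPN, and 592 and 27.6 in normal. The values lay in 2 ranges, with normal replicate 1, coQ10, T-5224 replicate 2 and both TPA libraries at 129 or more, and the other 4 libraries at 27.6 or less. The normal and the T-5224 groups each had 1 library in either range.

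Cfd encodes adipsin, the complement protease factor D (chromosome 10, 79890853 to 79892655). It was at 1213 and 1515 FPKM in TPA, 118 and 1066 in T-5224, 1607 in coQ10, 88.3 and 173 in BAPN, and 4332 and 167 in normal. Retn encodes resistin, a hormone of adipocytes in mice (chromosome 8, 3655770 to 3659818). It was at 68.2 and 113 FPKM in TPA, 9.81 and 63.6 in T-5224, 143 in coQ10, 8.31 and 10.2 in BAPN, and 541 and 9.61 in normal. For both genes the same 4 libraries as for Adipoq were low. Among them the spread was small for Retn, from 8.31 to 10.2 FPKM, and BAPN and normal replicate 2 overlapped for both genes.

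Lep encodes leptin, the satiety hormone (chromosome 6, 29060221 to 29073876), and was the scarcest of the 10. It was at 0.61 and 0.59 FPKM in TPA, 0.94 and not listed in T-5224, 4.62 in coQ10, 0.35 and 0.45 in BAPN, and 13.8 and 0.80 in normal. Only coQ10 and normal replicate 1 were above 1 FPKM. Both TPA libraries, high for Adipoq, Cfd and Retn, were among the low ones for Lep. Lep per Adipoq was 0.00436 and 0.00458 with TPA, and 0.0589 and 0.0335 with BAPN alone. With values this low and the depth unknown, the differences among the 7 libraries under 1 FPKM are not resolved.

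**Figure D1:**
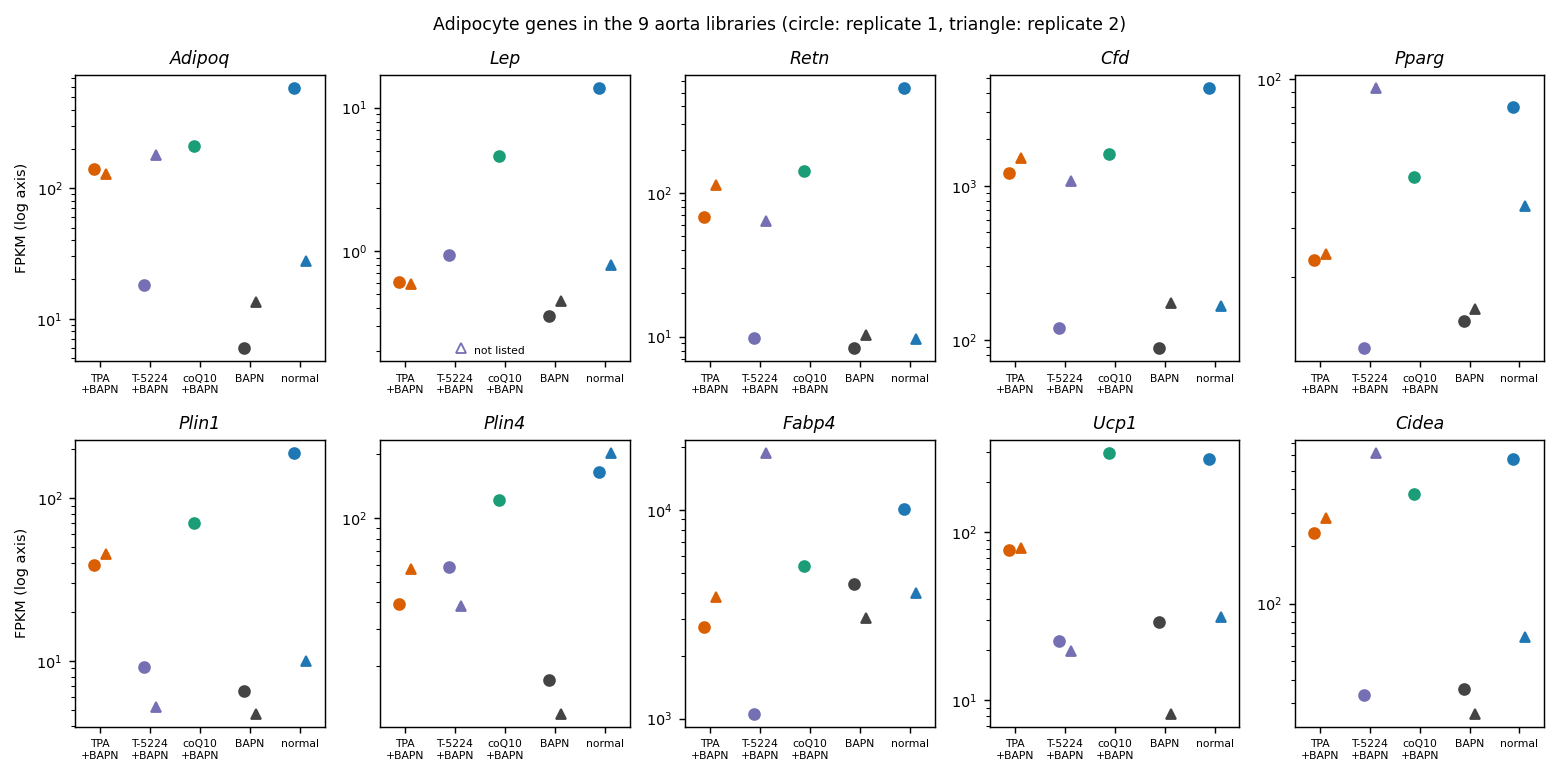
FPKM of each gene (log axis) in the 9 libraries, 1 panel a gene, with groups from left to right TPA, T-5224, coQ10, BAPN and normal, circles for replicate 1 and triangles for replicate 2. Adipoq, Retn and Cfd show the same high and low libraries, while Plin4 is highest in both normal libraries (165 and 203 FPKM) and Fabp4, Cidea and Pparg are highest in T-5224 replicate 2.

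Plin1 encodes perilipin 1, which coats the lipid droplet of adipocytes and controls access of lipases to it (chromosome 7, 79721164 to 79732904). Its level was 38.8 and 45.5 FPKM in TPA, 9.18 and 5.23 in T-5224, 70.2 in coQ10, 6.51 and 4.76 in BAPN, and 190 and 9.99 in normal. T-5224 replicate 2, high for Adipoq, was among the low libraries for Plin1.

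Plin4 encodes perilipin 4, a droplet protein found in fat and in muscle (chromosome 17, 56100587 to 56109948). Its level was 39.1 and 57.3 FPKM in TPA, 58.7 and 38.4 in T-5224, 122 in coQ10, 17.3 and 12.0 in BAPN, and 165 and 203 in normal. It was the only 1 of the 10 with both normal libraries above all others, and the libraries of each group lay within 1.53-fold of each other. Normal replicate 2, which had 27.6 FPKM of Adipoq, had the highest Plin4 of all.

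Fabp4 encodes the fatty acid carrier of adipocytes, which endothelial cells and macrophages also make (chromosome 3, 10204342 to 10208616). It was at 2751 and 3841 FPKM in TPA, 1057 and 18726 in T-5224, 5397 in coQ10, 4421 and 3030 in BAPN, and 10074 and 3993 in normal. It was the most abundant gene of normal replicate 1 and held between 59.8% and 95.5% of the summed FPKM of the 10 genes in a library. The BAPN libraries, the lowest for Adipoq, ranked 4 and 7 of the 9 for Fabp4. The T-5224 libraries were the lowest and the highest of the 9. Together the 10 genes made up 0.313% and 0.415% of the FPKM sum in TPA, 0.145% and 1.90% in T-5224, 1.34% in coQ10, 0.283% and 0.183% in BAPN, and 2.91% and 0.905% in normal. With haemoglobin left out of the sum, the share was 1.03% and 1.35% in TPA, 0.245% and 2.14% in T-5224, 1.42% in coQ10, 0.912% and 0.704% in BAPN, and 2.95% and 0.914% in normal, so that BAPN replicate 1 was level with normal replicate 2.

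Pparg encodes PPARγ (chromosome 6, 115360879 to 115490404). It was at 23.1 and 24.2 FPKM in TPA, 11.2 and 93.6 in T-5224, 45.1 in coQ10, 14.0 and 15.5 in BAPN, and 80.1 and 35.8 in normal. Its range was the narrowest of the 10, at 8.33-fold between the lowest and the highest library. The T-5224 libraries again held both ends.

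Ucp1 encodes the uncoupling protein of brown adipocytes (chromosome 8, 83290348 to 83298456). It was at 78.04 and 80.8 FPKM in TPA, 22.6 and 19.7 in T-5224, 297 in coQ10, 29.4 and 8.33 in BAPN, and 271 and 31.2 in normal. The coQ10 library was the highest of the 9 for this gene alone. Cidea encodes a lipid droplet protein of brown adipocytes in mice (chromosome 18, 67343564 to 67367794). It was at 235 and 281 FPKM in TPA, 33.1 and 619 in T-5224, 377 in coQ10, 35.9 and 26.5 in BAPN, and 577 and 66.7 in normal. In T-5224 replicate 2 Cidea was the highest of the 9 libraries and Ucp1 the lowest but 1, at a Ucp1 to Cidea ratio of 0.032 against 0.29 to 0.82 in the other 8.

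Ratios between genes within a library do not depend on how the library was scaled. Cfd ran between 5.96 and 14.9 times Adipoq in the 9 libraries, and both BAPN libraries, at 14.9 and 12.9, were above the other 7. Plin1 was at 0.28 to 0.51 of Adipoq in 7 libraries, but at 1.10 in BAPN replicate 1 and 0.029 in T-5224 replicate 2. Ucp1 stood at 0.56 and 0.63 of Adipoq in TPA, 1.25 and 0.11 in T-5224, 1.42 in coQ10, 4.95 and 0.62 in BAPN, and 0.46 and 1.13 in normal. The lowest and the highest of these Ucp1 ratios were in T-5224 replicate 2 and BAPN replicate 1, each far from the other library of its group. Cidea, the other brown marker, was at 3.46 times Adipoq in T-5224 replicate 2 and 6.04 times in BAPN replicate 1. In the other libraries Cidea was at 0.97 to 2.41 times Adipoq. In T-5224 replicate 2 the brown markers thus went opposite ways. Fabp4 was 19.7 and 29.8 times Adipoq in TPA, 58.5 and 105 times in T-5224, 25.7 times in coQ10, 744 and 226 times in BAPN, and 17.0 and 144 times in normal. Plin4 was 20.3 times Plin1 in normal replicate 2, and 0.87 to 7.33 times in the other 8 libraries.

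**Figure D2:**
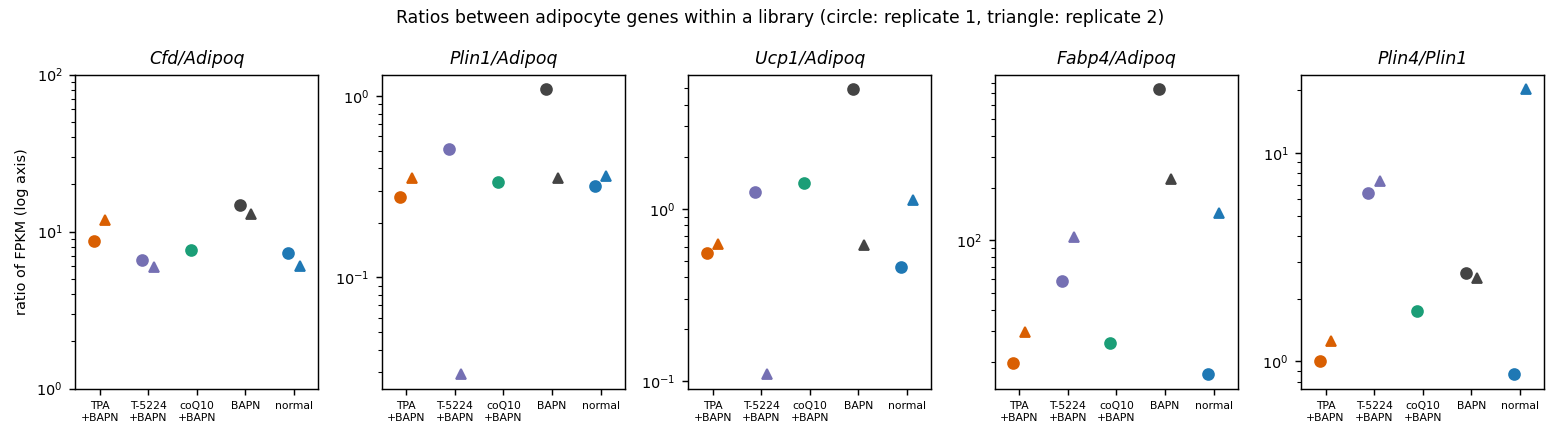
Ratios of FPKM within a library (log axes) for 5 gene pairs, groups from left to right TPA, T-5224, coQ10, BAPN and normal, circles for replicate 1 and triangles for replicate 2. Cfd to Adipoq varies least (5.96 to 14.9), and Fabp4 to Adipoq spans 17.0 to 744.

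The 2 libraries of a group were alike for TPA and unlike for normal and T-5224, whose libraries may differ in length of treatment. Between the TPA libraries the 10 genes differed by at most 1.65-fold, the largest difference being that of Retn. Between the BAPN libraries the largest difference was 3.53-fold, for Ucp1, which was higher in replicate 1. In normal, replicate 1 was higher for 9 of the 10 genes, by 56.3-fold for Retn, 26.0-fold for Cfd, 21.4-fold for Adipoq and 19.0-fold for Plin1, and by 2.52-fold for Fabp4 and 2.24-fold for Pparg. In T-5224, replicate 2 was higher by 18.7-fold for Cidea, 17.7-fold for Fabp4, 9.91-fold for Adipoq, 9.00-fold for Cfd, 8.33-fold for Pparg and 6.48-fold for Retn. In the same pair Plin1, Plin4 and Ucp1 were lower in replicate 2, and Lep, under 1 FPKM in both, was not resolved. The longest coding transcripts of Fabp4, Cfd, Cidea, Retn and Adipoq have 896 to 1292 bases, those of Ucp1 and Pparg 1636 and 2125, and those of Plin1, Lep and Plin4 2817, 3259 and 5756. T-5224 replicate 2 had the lowest length trend (-0.404, against -0.00243 in T-5224 replicate 1). In it the 5 shortest were higher, and Plin1 and Plin4 lower. Ucp1 and Pparg broke the order of length, as Ucp1 (1636 bases) was lower and the longer Pparg (2125 bases) 8.33-fold higher. The part of transcript length in this was not tested.

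**Figure D3:**
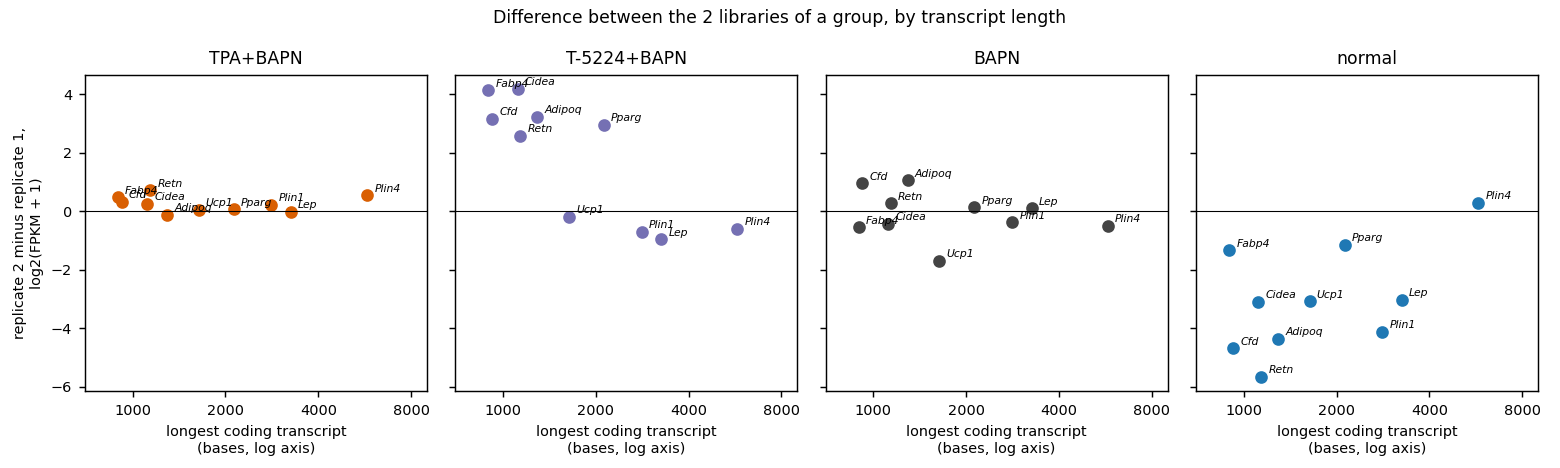
Difference between the libraries of a group (replicate 2 minus replicate 1, log2 of FPKM plus 1) for each gene, against its longest coding transcript (bases, log axis). The TPA points lie near 0, normal is below 0 for all genes but Plin4, and in T-5224 the 5 shortest transcripts and Pparg are above 0 and the other 4 below.

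Across the 9 libraries, Cfd, Retn and Adipoq followed each other most closely. Pearson's r of log2(FPKM + 1) was 0.98 for Cfd with Retn and for Adipoq with Cfd, and 0.95 for Adipoq with Cidea and for Ucp1 with Plin1. Fabp4 and Pparg were closest to each other, at 0.89. Plin4 was the gene least like the rest, with a median r of 0.53 with the other 9. These values describe 9 points that share a scaling and other tissue in each library, and no test is attached to them.

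Some marker lists of other cell types followed members across the libraries. The order of the 9 libraries for Plin4 was the same as that for the mean level of the 8 smooth muscle markers (Spearman's rho 1.00, n = 9 libraries). These markers had a mean log2(FPKM + 1) of 7.07 and 7.45 in TPA, 8.40 and 6.72 in T-5224, 8.41 in coQ10, 6.15 and 5.02 in BAPN, and 8.43 and 9.50 in normal. By their summed FPKM the order was not that of Plin4. There T-5224 replicate 1 (12976) and coQ10 (10473) were above normal replicate 1 (6693). Fabp4 followed the endothelial markers (rho 0.93), which were at 4.25 and 6.22 in T-5224, the lowest and highest of the 9, and at 5.28 to 6.06 in the others. Adipoq followed the mesothelial markers (rho 0.95), and these summed to 95.9 and 71.6 FPKM in TPA, 10.4 and 99.4 in T-5224, 78.8 in coQ10, 2.76 and 1.17 in BAPN, and 300 and 4.54 in normal. Retn, Cfd and Cidea also followed the mesothelial markers (Pearson's r 0.96, 0.95 and 0.94, against 0.97 for Adipoq), and Cfd and Adipoq the cardiac muscle markers less closely (0.82 and 0.80). In the BAPN libraries 4 of the 6 mesothelial markers were listed and Upk1b was not. These pairs were picked after the values were seen, among all pairs of a gene and a marker list, and the part of those cells in the levels was not tested. Airway markers had a Pearson's r of 0.76 with Adipoq, 0.80 with Cfd, 0.76 with Retn and 0.74 with Cidea. They summed to 33.7 FPKM in the coQ10 library, which was second for Adipoq. The part of airway tissue in these levels was not tested.

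**Figure D4:**
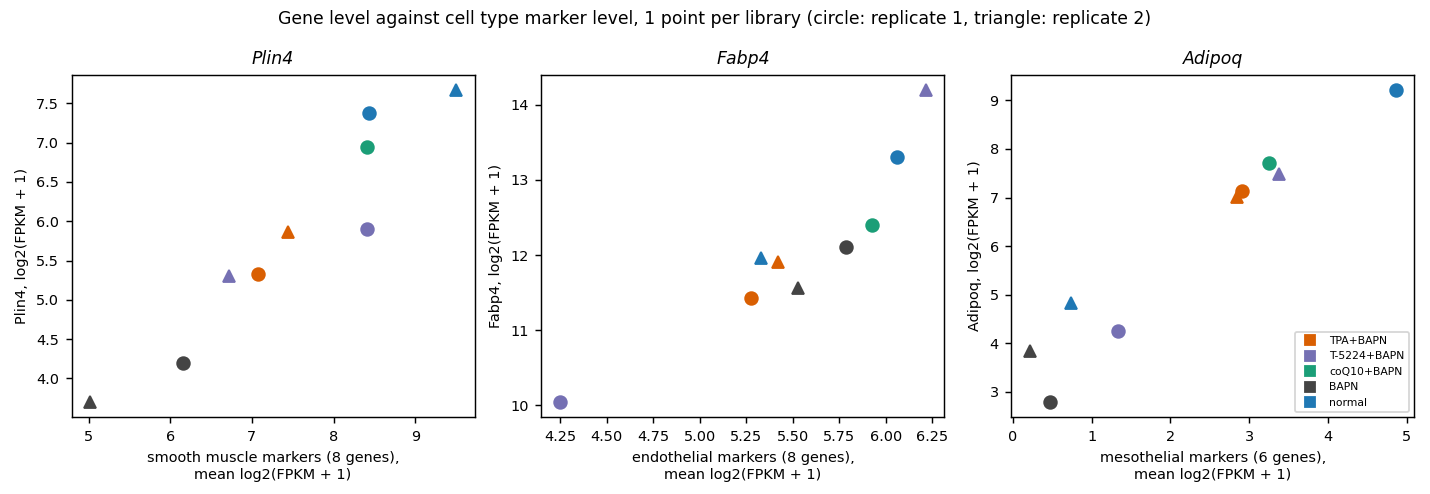
Level of Plin4, Fabp4 and Adipoq (log2 of FPKM plus 1) against the mean level of smooth muscle, endothelial and mesothelial markers, 1 point a library, circles for replicate 1 and triangles for replicate 2. Plin4 has the same order as the mean level of the smooth muscle markers in all 9 libraries, and the normal and T-5224 pairs are far apart for Fabp4 and Adipoq.

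BAPN against normal asked what BAPN does to the aorta. All 10 genes were lower on average in BAPN, and 1, Plin4, fell past the threshold. Plin4 averaged 14.7 ± 3.77 FPKM in BAPN and 184 ± 26.7 in normal (SD, n = 2 each), a log2 change of -3.57 (SE 0.37, limma adjusted p = 0.0256). Over all 12997 genes 3.26% were called, 2.36% as lower and 0.900% as higher. Plin4 passed in 8 of 17 alternatives, and over all 17 its log2 change ran from -5.17 to -3.005. Leaving out normal replicate 1 or 2 gave an adjusted p of 0.0655 or 0.0514, BAPN replicate 1 or 2 gave 0.164 or 0.246, and TPA replicate 1 or 2 gave 0.0951 or 0.0927. The 8 smooth muscle markers moved the same way, summing to 2060 and 758 FPKM in BAPN against 6693 and 18689 in normal, and haemoglobin took 68.9% and 74.1% of the sum in BAPN against 1.25% and 1.03% in normal. The length trend was 0.301 and 0.423 in normal, and -0.202 and -0.0858 in BAPN. Plin4 has the longest coding transcript of the 10, at 5756 bases. The part of smooth muscle, haemoglobin and transcript length in the result was not tested.

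None of the other 9 genes passed in this comparison. Adipoq averaged 9.69 ± 5.30 FPKM in BAPN and 310 ± 399 in normal, a log2 change of -3.70 with a 95% interval of -7.33 to -0.07 (limma adjusted p = 0.148). Ucp1 differed by -2.47 (interval -4.83 to -0.12, adjusted p = 0.14), Plin1 by -2.80 (-5.57 to -0.03, 0.151) and Cidea by -2.63 (-6.07 to 0.81, 0.249). Fabp4 differed least, by -0.79 (-3.98 to 2.40, 0.702). The median change of the 10 was -2.70, against -0.51 for all genes tested. The libraries of 7 of the 10 did not overlap between the groups, all of them lower in BAPN, where 51.1% of all genes were lower and 15.0% higher without overlap. The 7 include Lep, at 0.35 and 0.45 FPKM in BAPN against 0.80 in normal replicate 2. An unadjusted p under 0.05 was reached by 4 of the 10, and by 32.4% of all genes. Without normal replicate 1 the median of the 10 was -0.84, and without normal replicate 2 it was -4.10.

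TPA plus BAPN against BAPN alone asked what an AP-1 activator adds. Of the 10 genes, 9 were higher in both TPA libraries than in either BAPN library, where 41.4% of all genes were (21.2% were lower in both), and Fabp4 overlapped. The 9 include Lep, which was under 1 FPKM in all 4 libraries. Adipoq averaged 134 ± 7.99 FPKM in TPA and 9.69 ± 5.30 in BAPN (SD, n = 2 each). Its log2 change of 3.76 had a 95% interval of 0.13 to 7.39 (limma adjusted p = 0.486). Cfd differed by 3.45 (-0.36 to 7.25, adjusted p = 0.507), Retn by 3.12 (-0.98 to 7.22, 0.547), Cidea by 3.02 (-0.42 to 6.46, 0.511) and Plin4 by 1.65 (0.78 to 2.52, 0.333). None of the 10 passed, and 0.0385% of all genes did (0.0231% as higher and 0.0154% as lower). By limma, 2 of the 10 had an unadjusted p under 0.05, against 10.2% of all genes. With only the TPA and BAPN libraries in the fit, the spread came from those 4 libraries alone. In that fit 6 of the 10 passed, Adipoq, Plin1, Plin4, Cfd, Cidea and Retn, all higher in TPA. Over all 12997 genes it called 972, 702 as higher and 270 as lower. The TPA libraries also carried the airway markers given above, at 15715 and 7155 FPKM against 24.3 and 21.7 in BAPN. Cardiac muscle markers were at 3557 and 890 against 30.0 and 60.1, and mesothelial markers at 95.9 and 71.6 against 2.76 and 1.17. Skeletal muscle markers were high in both groups, at 7953 and 14763 in TPA and 3171 and 1616 in BAPN. The part of these tissues in the changes was not tested.

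T-5224 plus BAPN against BAPN alone asked what an AP-1 inhibitor adds. Only Adipoq and Plin4 were higher in both T-5224 libraries than in either BAPN library, 2 of 10 where 34.2% of all genes were (12.8% were lower in both). Plin4 averaged 48.5 ± 14.4 FPKM in T-5224 and 14.7 ± 3.77 in BAPN (SD, n = 2 each), a log2 change of 1.65 (SE 0.37, limma adjusted p = 0.148). Adipoq, at 98.5 ± 114 against 9.69 ± 5.30 FPKM, differed by 2.55 (-1.08 to 6.18, adjusted p = 0.394). Ucp1 differed by 0.39 (-1.96 to 2.74, 0.85), Plin1 by 0.28 (-2.50 to 3.05, 0.917) and Fabp4 by 0.28 (-2.91 to 3.47, 0.926). None of the 10 passed, and 0.0308% of all genes did. By limma, 1 of the 10 had an unadjusted p under 0.05, against 18.3% of all genes. Without T-5224 replicate 2 the change of Fabp4 was -1.79 and without T-5224 replicate 1 it was 2.35, so its sign turned with the library kept.

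CoQ10 plus BAPN against BAPN alone rested on 1 coQ10 library, whose spread was taken to be that of the other groups. All 10 genes were above both BAPN libraries, where 59.6% of all genes were (24.1% were below both). Ucp1, at 297 FPKM against 18.9 ± 14.9 in BAPN (SD, n = 2), differed by 4.14 (95% interval 1.26 to 7.03, limma adjusted p = 0.191). Plin4, at 122 against 14.7 ± 3.77 FPKM, differed by 3.00 (1.93 to 4.06, adjusted p = 0.185). Adipoq differed by 4.40 (-0.05 to 8.84, 0.255) and Plin1 by 3.44 (0.04 to 6.83, 0.25). The median change of the 10 was 3.50, against 0.39 for all genes. None passed, and 0.0154% of all genes did. By limma, 3 of the 10 had an unadjusted p under 0.05, against 19.8% of all genes. Without T-5224 replicate 2 in the fit Plin4 passed, at an adjusted p of 0.0475.

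TPA against T-5224, both under BAPN, set the AP-1 activator against the inhibitor. Cfd, Plin1, Retn and Ucp1 were higher in both TPA libraries than in either T-5224 library, 4 of 10 where 16.5% of all genes were (28.0% were lower in both). Plin1 averaged 42.1 ± 4.79 FPKM in TPA and 7.21 ± 2.79 in T-5224, a log2 change of 2.43 (-0.34 to 5.21, limma adjusted p = 0.486). Plin4 differed by -0.0028 (-0.88 to 0.87, adjusted p = 0.997). None of the 10 passed, and 0.0154% of all genes did. By limma, none of the 10 had an unadjusted p under 0.05, against 10.9% of all genes. BAPN against normal and the comparisons of TPA, T-5224 and coQ10 with BAPN share the 2 BAPN libraries, so their changes are not independent. A low value in BAPN lowers the change against normal and raises the changes of the treatments.

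**Figure D5:**
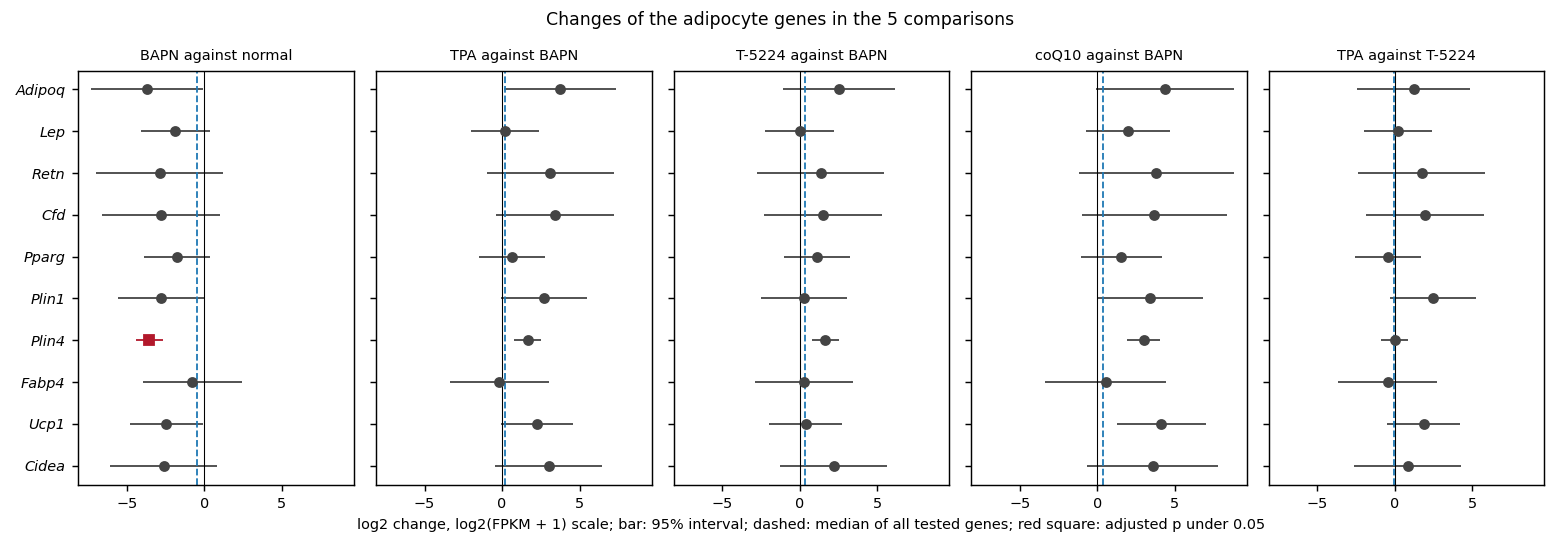
Log2 change of each gene in the 5 comparisons, with 95% intervals from limma, the dashed line at the median of all 12997 tested genes. Only Plin4 in BAPN against normal (-3.57, red square) passed an adjusted p of 0.05, and its intervals are the narrowest of the 10.

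A further 97 genes of adipocyte pathways, in 7 lists, gave 92 that were tested. In BAPN against normal 3 fell and 1 rose. Over all genes 2.36% were called as lower and 0.900% as higher, so these counts are near the background. Rbp4, the retinol carrier secreted by liver and fat, fell by 2.78 log2 (SE 0.42, limma adjusted p = 0.0458), at 34.0 and 16.9 FPKM in BAPN against 157 and 186 in normal. Rxra, the receptor with which PPARγ pairs on DNA, fell by 1.75 (SE 0.32, adjusted p = 0.0475), at 9.80 and 6.25 FPKM in BAPN against 29.7 and 27.8 in normal. Npr3, the clearance receptor of natriuretic peptides, fell by 1.82 (SE 0.30, adjusted p = 0.0458), at 1.64 and 1.51 FPKM in BAPN against 8.52 and 7.73 in normal. Icam1, an adhesion molecule placed in the list of precursor genes and also made by inflamed endothelium, rose by 3.02 (SE 0.41, adjusted p = 0.037), at 117 and 104 FPKM in BAPN against 18.9 and 8.49 in normal. The 4 calls were lost when any library of normal, BAPN or TPA was left out. They were also lost with no filter (limma adjusted p = 0.051 for Icam1 to 0.0634 for Npr3), with haemoglobin left out of the sum (0.0604 for Icam1 to 0.112 for Npr3) and with only the BAPN and normal libraries in the fit (0.0642 to 0.0647). Median-of-ratios scaling ended the calls of Rbp4, Rxra and Npr3 (0.0576, 0.117 and 0.0732), and a pseudocount of 0.1 that of Rxra (0.0536). None of the 92 passed in any of the other comparisons.

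The direction of these lists can be set beside that of all genes. In BAPN against normal 81 of the 92 were below 0 (88.0%, against 72.5% of all genes). Above 0 were 78 in TPA against BAPN (84.8%, against 61.8%), 69 in T-5224 against BAPN (75.0%, against 69.4%), 82 in coQ10 against BAPN (89.1%, against 68.4%) and 69 in TPA against T-5224 (75.0%, against 44.9%). In BAPN against normal all 13 lipid droplet and lipolysis genes were below 0, with a median of -1.62, and all 22 genes of fatty acid uptake and triglyceride synthesis, with a median of -1.69. The thermogenic list, 18 genes, had a median of -1.17, adipogenic regulators -0.94, and precursor genes -0.17. With all 20 listed thermogenic genes, tested or not, the mean level was 3.86 and 2.30 in normal, and 2.29 and 1.70 in BAPN. In coQ10 against BAPN the 22 synthesis genes had a median of 2.09 and the thermogenic genes 1.41.

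Among the most abundant genes of these lists, normal replicate 1, coQ10 and both TPA libraries were high for the lipid genes, while the T-5224 pair varied from gene to gene. Scd1, the stearoyl-CoA desaturase, was at 254 and 265 FPKM in TPA, 74.9 and 49.5 in T-5224, 699 in coQ10, 77.0 and 70.1 in BAPN, and 2065 and 53.9 in normal. Pnpla2, the first lipase of triglyceride breakdown, was at 295 and 398 in TPA, 49.0 and 830 in T-5224, 310 in coQ10, 107 and 85.1 in BAPN, and 794 and 155 in normal. The T-5224 libraries were the lowest and the highest for Pnpla2 and T-5224 replicate 2 was the lowest for Scd1. Thrsp, a regulator of lipogenesis, was at 309 and 329 FPKM in TPA, 74.6 and 162 in T-5224, 629 in coQ10, 83.4 and 50.7 in BAPN, and 973 and 66.4 in normal. Cidec, which fuses lipid droplets, was at 153 and 173 in TPA, 10.7 and 127 in T-5224, 149 in coQ10, 52.0 and 40.4 in BAPN, and 614 and 32.9 in normal.

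Of the thermogenic list, Cox8b, a cytochrome oxidase subunit of brown fat and striated muscle, was at 346 and 350 FPKM in TPA, 57.2 and 437 in T-5224, 800 in coQ10, 174 and 49.0 in BAPN, and 263 and 53.4 in normal. Cox7a1, another such subunit, was at 137 and 151 in TPA, 64.1 and 51.2 in T-5224, 358 in coQ10, 22.0 and 27.4 in BAPN, and 269 and 15.6 in normal. Both were highest in coQ10, as Ucp1 was. Adig, a small adipocyte membrane protein, was at 31.5 and 34.6 FPKM in TPA, 2.17 and 89.5 in T-5224, 38.4 in coQ10, 5.01 and 1.93 in BAPN, and 115 and 9.17 in normal. Slc1a5, a glutamine transporter, was at 96.3 and 99.7 in TPA, 91.2 and 31.3 in T-5224, 218 in coQ10, 28.7 and 49.5 in BAPN, and 264 and 60.0 in normal. Adig followed the order of high and low libraries seen for Adipoq, and Slc1a5 did not for the T-5224 pair.

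The remaining abundant genes of the lists had narrower ranges or other highest libraries. Cebpd and Cebpb, C/EBP factors that act early in adipogenesis, ran from 29.3 to 252 and from 41.2 to 185 FPKM over the 9 libraries, highest in T-5224 replicate 2 and in coQ10. Rarres2, which encodes chemerin, ran from 94.97 to 335 FPKM, and Adipor1, an adiponectin receptor, from 67.2 to 163, both highest in T-5224 replicate 2. Ly6a, which marks stromal progenitors, ran from 72.9 to 381 FPKM and was highest there too. Pi16, of adventitial fibroblasts and precursors, ran from 27.0 to 221 and was highest in normal replicate 1.

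Likeness over the 9 libraries was ranked among the 12997 tested genes, leaving out the 10 members and clone-like symbols (Gm or Rik). The 10 genes closest to Adipoq were Adtrp, Il15ra, Upk1b, Cluh, Retsat, Slc36a2, Acacb, Ces1f, Lipe and Mrap (Pearson's r 0.98 to 0.95). Lipe encodes hormone-sensitive lipase, Acacb an acetyl-CoA carboxylase and Mrap the accessory protein of the ACTH receptor, while Upk1b is one of the mesothelial markers used above. Lipe was at 52.6 and 68.1 FPKM in TPA, 24.0 and 96.7 in T-5224, 124 in coQ10, 19.7 and 16.3 in BAPN, and 246 and 41.3 in normal. The 5 closest to Ucp1 were Ptdss2, Ganc, Pigt, Clstn3 and Acaca (r 0.98 to 0.95). Acaca, the acetyl-CoA carboxylase of fatty acid synthesis, was at 22.0 and 23.3 FPKM in TPA, 14.8 and 9.20 in T-5224, 62.0 in coQ10, 7.40 and 5.54 in BAPN, and 88.3 and 8.88 in normal.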

How the data were processed

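RNA was measured in 9 aorta libraries. Per the labels' protocols, Trizol was used for extraction and a TruSeq kit for the libraries. Each library has its own table of FPKM by gene symbol, as deposited by the authors, with 2 decimals. Genes at 0 were not listed there and were set to 0. The submitters' processing notes name mm10; aligner, counter and annotation: not given in the sources used here. FPKM carry no counts, so the depth is unknown and no counting interval could be given.

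Values were taken as log2(FPKM + 1), and 12997 genes with a mean of at least 1 FPKM were tested with limma 3.58.1 (R 4.3.3), variance trend included. The model had 5 groups over all 9 libraries and 4 residual degrees of freedom. P-values are two-sided and adjusted by Benjamini-Hochberg over the 12997 genes within each comparison; calls have an adjusted p under 0.05. The code was tested on simulated data. A fold change on this scale understates the change of low genes.

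Scripts ran under python 3.11.15 with matplotlib 3.10.9 for figures, scipy 1.17.1 for correlations and pandas 2.3.3 with numpy 2.4.6 for tables. Coordinates and promoters are RefSeq, GRCm38.p6, the build of mm10; transcript lengths are GENCODE M21, longest protein-coding transcript, found for 12627 tested genes (97.2%). The 10 genes, the lists and the tests were chosen with earlier results of these data known. Named pathway genes were those that passed (up to 3 a list and comparison) and the 2 of each list with the highest mean FPKM. Alternatives were another pseudocount (0.1), no filter, 3 scalings, the replicate number as a block, only the groups compared and leaving out each library. Leaving out normal replicate 1 and T-5224 replicate 2 together was added after the data were seen.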

Additional observations from a re-analysis of the deposited data

How the results depend on the processing

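Of 908 recomputed log2 changes, 771 kept their direction and their side of the threshold. The 908 cover the 10 genes and, in BAPN against normal, also Rxra, Rbp4, Npr3 and Icam1. They include fits without a library of neither group compared, where only the p-value can move and the log2 change cannot. In BAPN against normal the genes called, 1 of 10, became 9 after rescaling to TPM, 0 with haemoglobin left out of the sum, 0 with the replicate block, 0 with only the 2 groups compared, and 3 (Plin4, Cidea and Pparg) without normal replicate 1 and T-5224 replicate 2 together; leaving out 1 library gave 0 to 2. In TPA against BAPN the count, 0, became 6 with only the 2 groups compared and 6 without those 2 libraries. In T-5224 against BAPN it became 1 with TPM and 2 without those 2 libraries, in coQ10 against BAPN 7 and 9, and 0 to 1 leaving out 1 library, and in TPA against T-5224 5 without those 2 libraries. That fit takes its spread from the TPA and BAPN pairs alone. The cause of each move was not tested.

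The count over all genes in BAPN against normal was 424 (117 higher, 307 lower), and 152 with a pseudocount of 0.1, 53 with no filter, 226 (196 higher, 30 lower) with median-of-ratios scaling, 9637 (156 higher, 9481 lower) with TPM, 30 (28 higher, 2 lower) with haemoglobin left out, 8 with the replicate block, 37 with only the 2 groups, and 4032 without the 2 libraries. Leaving out 1 library gave 0 to 3670. Over all genes, TPM called 2 in TPA against BAPN, 3168 in T-5224 against BAPN, 7328 in coQ10 against BAPN and 2 in TPA against T-5224. Without the 2 libraries these were 1023, 2245, 2967 and 584, and with only the 2 groups compared 972, 0, 0 and 0, so the counts of the 10 genes moved along with those of the whole table. Leaving out 1 library, the other comparisons, at 5, 4, 2 and 2 genes, ran from 0 to 9 (TPA), 0 to 85 (T-5224), 0 to 104 (coQ10) and 0 to 666 (TPA against T-5224). The median change of all genes in BAPN against normal, -0.51, was -0.01 with median-of-ratios scaling and -1.92 with TPM.

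Same-numbered libraries of different groups did not deviate together (r of -0.44 to 0.18 over 6 pairs of groups). Because markers of other tissues also differed between the libraries of a group, these values cannot decide whether the numbers pair them. The replicate block changed no other count of the 10 genes.

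Some signs turned where the change was near 0, and others where it was not. Before any alternative, the change in T-5224 against BAPN was 1.52 for Cfd and 1.11 for Pparg. In TPA against T-5224 it was 1.21 for Adipoq and 0.83 for Cidea. The signs of Cfd, Pparg, Adipoq and Cidea turned there when a T-5224 library was left out. With TPM, Fabp4 in TPA against BAPN was 0.057, Lep 0.21 in T-5224 against BAPN and -0.011 in TPA against T-5224. With median-of-ratios scaling, Plin1 and Fabp4 in T-5224 against BAPN were -0.0399 and -0.083, and Plin4 in TPA against T-5224 was 0.16. With haemoglobin left out, Plin1, Fabp4 and Ucp1 in T-5224 against BAPN were -0.20, -0.30 and -0.15, and Plin4, Fabp4 and Pparg in TPA against T-5224 were 0.68, 0.25 and 0.22. Without the 2 libraries, Cfd, Fabp4, Lep and Pparg in T-5224 against BAPN were -0.059, -1.79, 0.47 and -0.36, and Fabp4, Lep and Pparg in TPA against T-5224 were 1.62, -0.28 and 1.01. Leaving out 1 library, the ranges in T-5224 against BAPN were -0.059 to 3.10 for Cfd, -1.79 to 2.35 for Fabp4, -0.48 to 0.47 for Lep, -0.078 to 0.63 for Plin1, -0.36 to 2.59 for Pparg and -0.46 to 1.24 for Ucp1. In TPA against T-5224 they were -0.41 to 2.83 for Adipoq, -1.27 to 2.92 for Cidea, -2.53 to 1.62 for Fabp4, -0.28 to 0.68 for Lep, -0.30 to 0.30 for Plin4 and -1.94 to 1.01 for Pparg, and in TPA against BAPN -0.44 to 0.10 for Fabp4.

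With haemoglobin left out, the share of the 10 genes in the FPKM sum was 1.03% and 1.35% in TPA, 0.245% and 2.14% in T-5224, 1.42% in coQ10, 0.912% and 0.704% in BAPN, and 2.95% and 0.914% in normal. With median-of-ratios scaling their summed FPKM was 7250 in coQ10 (8272 as deposited) and 5615 in BAPN replicate 1 (4627 as deposited).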
